A study of Drosophila melanogaster with 4 samples.

Results

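The regions described here are the stretches of the X chromosome that the study's authors listed as significantly enriched for histone H3 in adult fly heads. They were taken as every line of the authors' combined list whose sequence name is X, which gave 1935 of 16757 regions (11.5%) on a sequence that makes up 16.0% of the reference that carried regions. The replicate lists held 198 regions of X among 2327 in replicate 1 and 260 among 2779 in replicate 2. The study was a ChIP-seq experiment in Drosophila melanogaster with 2 ChIP libraries, made with an antibody named H3 antibody3, and 2 Input libraries, 1 for each ChIP replicate. All 4 libraries came from head nuclei of wild-type Oregon-R flies (Oregon-R-modENCODE) at the stage labelled Mixed Adult, without any treatment. The labels give neither the sex nor the exact age of the flies, and flies grew together in population cages on a 22-day cycle. Nothing in them says that the replicates came from separate cages, so the spread between replicates may be technical.

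Histone H3 is a core protein of the nucleosome, so DNA carrying it is found throughout the genome, and a listed region marks an excess of H3 ChIP over Input by the authors' criterion rather than the mere presence of nucleosomes. In flies, males carry a single X and females a pair. The male X is known for dosage compensation, in which a complex of the MSL proteins and the roX RNAs, which are themselves transcribed from X, binds along the chromosome and acetylates histone H4 in transcribed genes. This is background, and none of these factors was measured.

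The files give each region as a start, an end and the authors' score, whose scale is not stated, all on FlyBase release 5. Read depth is unknown, so no counting interval can be given for a single region, and a place without a region is not shown to lack enrichment. Regions on the large arms of the autosomes (2R, 2L, 3R and 3L, 4 in all), of which the combined list had 13943, were set beside those of X. X and the arms were paired within each replicate list, and an exact two-sided sign-flip test over these 2 pairs cannot give a p under 0.5. Regions of the same library are not replicates. Differences between X and the arms are therefore given as values with the spread of the replicate lists.

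H3-enriched regions were sparse on X and spread along all of it. In the combined list 12.7% of X lay in regions, against 23.9% of the autosomal arms, and X held 86.3 regions per Mb, against 144.3 on the arms. The replicate 1 list covered 1.38% of X and 3.33% of the arms, and the replicate 2 list 1.84% of X and 4.00% of the arms. By number, X had 8.83 regions per Mb and the arms 20.96 in replicate 1, and 11.6 and 24.8 in replicate 2. The density ratio of X to the arms was 0.444 ± 0.0324 over the replicates (SD, n = 2) and 0.598 in the combined list. Both replicates thus lay on the same side (exact two-sided sign-flip test of regions per Mb, p = 0.5, the smallest that 2 pairs allow), and set against each arm alone X was the sparser in every list, with combined density ratios of 0.542 (3R) to 0.663 (2L). The value for X depends on the score limit, as described below.

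At a resolution of 100 kb the cover of X was uneven but without an empty window. Of 224 windows, the lowest had 1.00% of its bases in combined regions, the median 11.4% and the highest 40.1%. The median window held 8 regions, against 14 on the arms. Of the X windows 203 (90.6%) lay below the median arm window of 23.1%, and 68 (30.4%) lay below the 5th percentile of arm windows, 8.45%. The lower cover of X was therefore seen in most windows. The densest X window, at 40.1%, lay between the 90th and 95th percentiles of arm windows (38.3% and 42.5%).

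**Figure D1:**
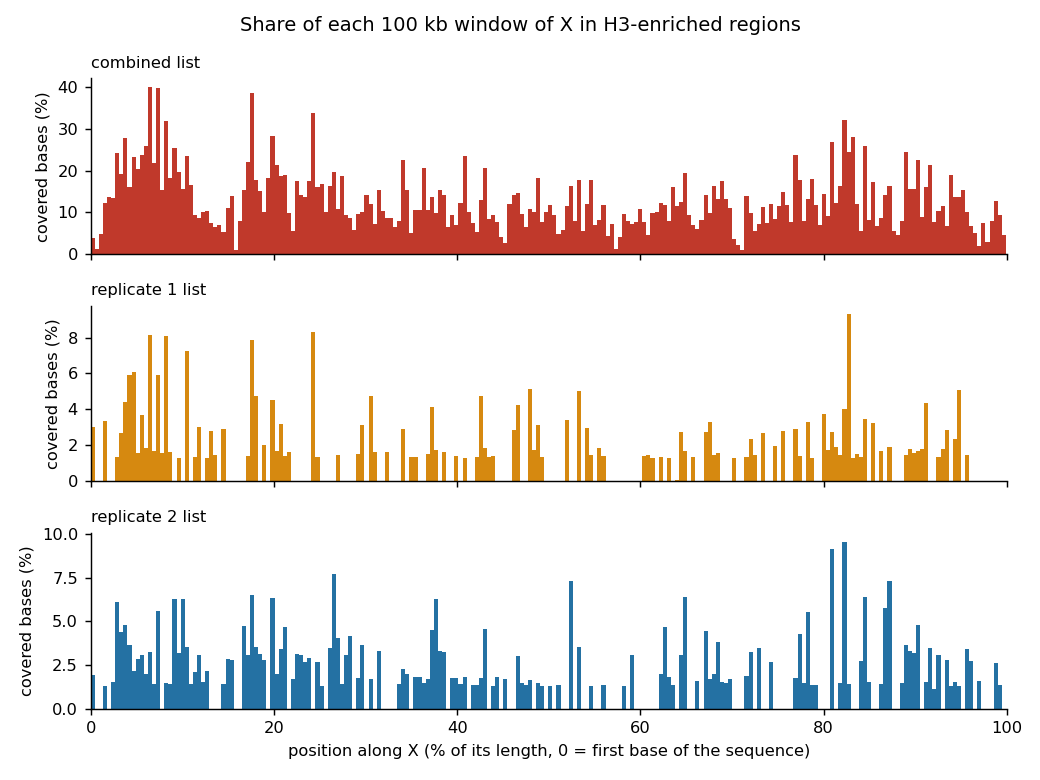
Share of bases in H3-enriched regions (y axis, %) in each 100 kb window along X (x axis, position as % of the length of X), in the combined, replicate 1 and replicate 2 lists. Combined cover is highest at 40.1%, in the window from 1400001, and its 5 lowest windows (1.00% to 1.99%) are scattered along X, while 106 windows of replicate 1 and 81 of replicate 2 hold no region.

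The 5 densest windows were X 1400001 to 1500000 (40.1%), 1600001 to 1700000 (39.9%), 3900001 to 4000000 (38.5%), 5400001 to 5500000 (33.8%) and 18400001 to 18500000 (32.2%). In the first of them replicate 1 covered 8.16% and replicate 2 3.26%. In the second the values were 5.90% and 5.59%, and in the third 7.84% and 6.54%. The fourth window differed between the replicates, with 8.33% in replicate 1 and 0 in replicate 2. The fifth had 4.03% in replicate 1 and 9.58% in replicate 2, the highest replicate 2 value of any X window.

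Part of the dense windows lay next to one another. Of 56 windows above the 75th percentile of X (16.3%), 25 formed 6 runs of at least 3 neighbours, which together held 389 regions in 2.5 Mb, and the others stood alone or in pairs. The longest ran from X 1000001 to 1700000, with 111 regions and a mean cover of 27.9% in the combined list, 4.14% in replicate 1 and 2.90% in replicate 2. Others lay at 600001 to 900000 (23.7%), 1800001 to 2200000 (23.8%), 3800001 to 4100000 (26.1%) and 4300001 to 4800000 (21.1%). The last of the 6 lay far along the chromosome, at 18400001 to 18700000 (28.3%, with 4.88% in replicate 1 and 3.67% in replicate 2). In each of the 6 runs both replicate lists covered more than their own mean over X. The runs were picked by combined cover, and the combined list comes from the libraries of the replicate lists. Higher replicate cover there is therefore no independent support.

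Of the 56 windows below the 25th percentile of X (7.80%), 22 also formed 6 such runs. These held 73 regions in 2.2 Mb. They were X 1 to 300000 (3.26%), 2900001 to 3300000 (6.59%), 9900001 to 10200000 (4.79%), 12600001 to 13000000 (4.23%), 15700001 to 16000000 (2.30%) and 21500001 to 22000000 (4.80%). The run at 12600001 to 13000000 held no base of either replicate list. Replicate 1 covered 1.80% of the run at 2900001 to 3300000, above its mean over X, and replicate 2 covered 0.351% of it. As with the dense runs, low replicate cover in the sparse runs is no independent support. Neighbouring windows were alike over distances of up to 0.5 Mb: the correlation of combined cover between windows was 0.422 at a distance of 0.1 Mb, 0.307 at 0.5 Mb and 0.0979 at 1 Mb. These windows belong to the same libraries, and the correlation is a description.

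In stretches of 500 kb, the number of combined regions ran from 17 (X 21500001 to 22000000) to 80 (X 1500001 to 2000000), with a median of 41. The stretch with 17 had 0 replicate 1 regions and 3 replicate 2 regions, and the stretch with 80 had 12 and 6. Each stretch from 500001 to 2500000 held 62 to 80 combined regions. Counts of 64 and 65 were found from 18000001 to 19000000, and 64 at 5000001 to 5500000. Between these, from 12500001 to 14000000, the 3 stretches held 22, 32 and 33 combined regions, with 1, 0 and 4 in replicate 1 and 1, 3 and 1 in replicate 2. The median stretch of X had 4 replicate 1 regions and 5 replicate 2 regions, so 2 of the 3 lay below it in replicate 1 and all 3 in replicate 2. These 3 stretches were picked by their combined counts, which come from the same libraries, so this is no independent support. The median length of regions varied less along X, from 1094 bp to 1501 bp per stretch, and the median score from 0.473 to 0.555.

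Regions on X carried higher scores than those on the arms, and did so along the whole chromosome. The median score was 0.517 on X and 0.404 on the arms in the combined list, 0.744 and 0.568 in replicate 1, and 0.737 and 0.590 in replicate 2. The difference was 0.113 in the combined list and 0.162 ± 0.0202 over the replicates (SD, n = 2). The arms differed little among themselves, with combined medians of 0.403 to 0.405. Of the X regions 1175 (60.7%) scored above the 95th percentile of arm regions in the combined list, as did 120 of 198 (60.6%) in replicate 1 and 128 of 260 (49.2%) in replicate 2. At the low end, the 5th percentile of scores was 0.402 on X and 0.306 on the arms.

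The shift was not carried by a few places. Among 100 kb windows with at least 3 combined regions, the window's median score was above the median arm window (0.402) in 213 of 213 X windows and above the 95th percentile of arm windows (0.445) in 207 of them. Of 952 arm windows 9 (0.945%) exceeded the median X window, 0.514. The lowest X window had a median score of 0.423 and the highest 0.698. Across the 213 windows, which share their libraries, the number of regions and the median score had a Pearson correlation of 0.147 (Spearman 0.163).

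**Figure D2:**
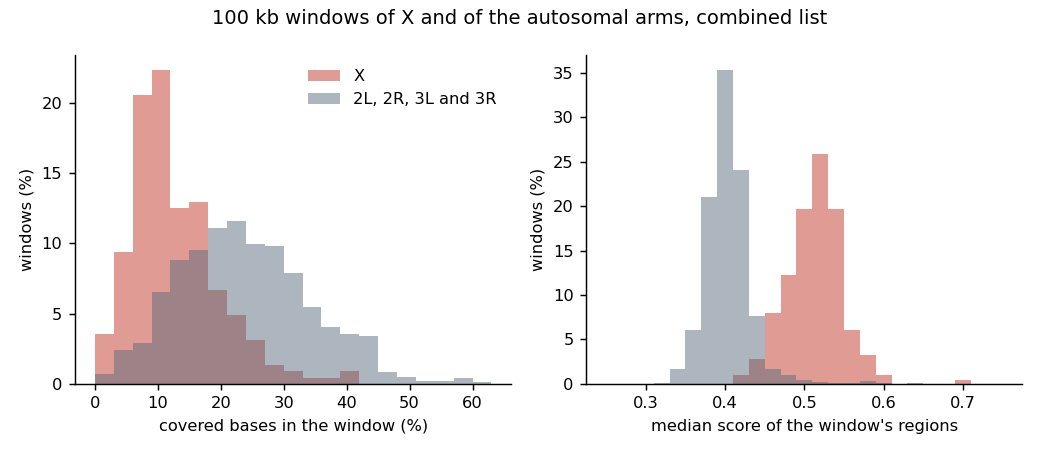
Distribution of 100 kb windows (y axis, % of windows) by combined cover (left, % of bases) and by the median score of their regions (right, windows with at least 3 regions), for X and for the 4 autosomal arms. X windows lie lower in cover (median 11.4% against 23.1%) and higher in score, and 1 of 952 arm windows falls outside the plotted scores.

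Because scores were higher on X, the order of X and the arms turned with the limit placed on the score. In the combined list X had 86.3 regions per Mb at or above a score of 0.3, against 138.4 on the arms. At 0.4 it had 82.1, against 76.0, and at 0.5 it had 50.7, against 6.65. The lowest limit at which X reached the density of the arms was 0.4 in the combined list, 0.59 in replicate 1 and 0.61 in replicate 2, in steps of 0.01. By bases X was still lower at 0.4 in the combined list, with 12.1% of X and 12.9% of the arms covered. Between scores of 0.45 and 0.5 the densities were close, at 21.4 and 20.7 regions per Mb. Between 0.35 and 0.4 X had 3.52 regions per Mb and the arms 43.0, and between 0.5 and 0.55 it had 23.8 and the arms 4.58. Below 0.4, X held 93 regions, against 6597 on the arms.

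**Figure D3:**
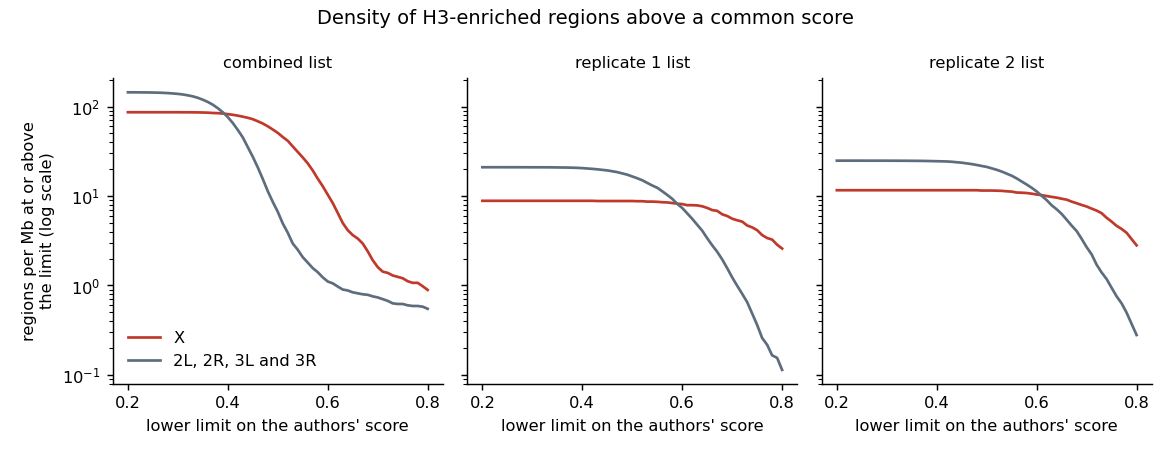
Regions per Mb at or above a lower limit on the authors' score (x axis), on a log scale (y axis), for X and for the 4 autosomal arms in each list. The curves cross at a limit of about 0.4 in the combined list, 0.59 in replicate 1 and 0.61 in replicate 2, and X lies above the arms beyond the crossing.

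X regions were also shorter in the combined list, and by little in the replicates. Medians of length were 1328 bp on X and 1445 bp on the arms in the combined list, 1475 bp and 1492 bp in replicate 1, and 1504 bp and 1508 bp in replicate 2. The difference over the replicates was -11.0 ± 9.19 bp (SD, n = 2), and against arm 2L alone replicate 2 had the longer regions on X, by 19.5 bp. Long regions were rarer on X: 46 of 1935 (2.38%) reached 3000 bp, against 5.43% of arm regions. The shortest X region had 1001 bp in the combined list, as on the arms, and 1301 bp in both replicate lists. On X, higher scores went with shorter regions in the combined list (Spearman rho -0.218 across 1935 regions), whereas in replicate 2 the sign was the opposite (0.180 across 260) and in replicate 1 rho was 0.0178. Within classes of score the order varied. X regions had the longer median between 0.4 and 0.45 (1444 bp and 1430 bp) and between 0.45 and 0.5 (1420 bp and 1381 bp). They had the shorter one between 0.35 and 0.4 (1422 bp and 1500 bp), between 0.5 and 0.55 (1312 bp and 1371 bp), which held the most X regions, and between 0.55 and 0.6 (1193 bp and 1224 bp).

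The 10 longest combined regions of X measured 3954 to 5032 bp and had scores of 0.487 to 0.603. The longest, X 10967123 to 10972154 (score 0.591), met 1 replicate 1 region and no replicate 2 region. Second came X 1068982 to 1073994 (5013 bp, score 0.532), which met 1 replicate 2 region and no replicate 1 region. The third, X 5671388 to 5676218 (4831 bp, score 0.487), met neither list. In all, 3 of the 10 met replicate 1, 5 met replicate 2, 2 met neither and 0 met both. Over all 1935 X regions these shares were 9.56%, 12.5%, 79.0% and 1.09%. In the class of the longest X regions (1686 to 5032 bp), 20.7% met replicate 1, 28.9% met replicate 2 and 54.8% met neither. With so low a share meeting both lists, 0 of 10 does not set these regions apart.

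The 10 highest scores on X were 1.12 to 3.40, and these regions were short, with a median length of 1005 bp. Over all X regions the 95th percentile of scores was 0.638, and 11 regions (0.568%) scored over 1. On the arms 38 of 13943 (0.273%) did, and the highest arm score was also 3.40. The highest on X was X 21821700 to 21822700 (1001 bp, score 3.40). It lay in the sparse end of X, 1745 bp from X 21818954 to 21819954 (1001 bp, score 2.08), and neither met a replicate region. The region X 21758902 to 21760894 (1993 bp, score 2.31), also nearby, had 81.1 kb without a region before it and 58059 bp after it. Replicate 2 listed a region there with its own highest X score, 3.13, and replicate 1 none. Likewise X 6328005 to 6329034 (1030 bp, score 2.08) met a replicate 2 region of score 3.02 and no replicate 1 region. The other 8 of the 10 met neither list.

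Neighbouring X regions lay farther apart than those on the arms. The median gap was 5724 bp on X and 2881 bp on the arms in the combined list, 58421 bp and 27612 bp in replicate 1, and 46753 bp and 21661 bp in replicate 2. The ratio of X to the arms was 1.99 in the combined list and 2.14 ± 0.0302 over the replicates (SD, n = 2). Relative to the median the long gaps were similar in the combined list: the 90th percentile was 4.40 times the median on X and 4.41 times on the arms. X had the higher value in both replicate lists, with 4.23 against 3.90 in replicate 1 and 4.52 against 4.32 in replicate 2. Of 1934 gaps on X in the combined list, 272 exceeded 20 kb, and these together took up 42.8% of the chromosome, against 18.2% of the arms.

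**Figure D4:**
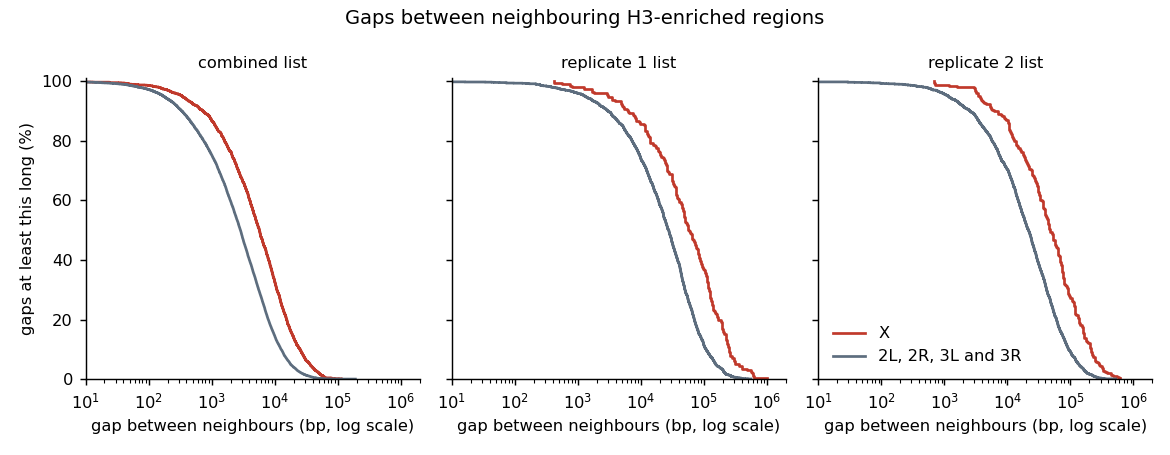
Share of gaps between neighbouring regions (y axis, %) that are at least as long as the value on the x axis (bp, log scale), for X and for the 4 autosomal arms in each list. The X curve lies to the right in all 3 lists, with medians of 5724 bp against 2881 bp in the combined list.

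In the combined list, gaps over 50 kb were as numerous on X as on the arms together, 39 against 38, although the arms are 4.31 times as long. That is 1.74 per Mb on X and 0.393 per Mb on the arms. The replicate lists, in which most gaps are long, had the opposite order, with 4.73 per Mb on X and 6.26 on the arms in replicate 1, and 5.71 and 6.20 in replicate 2. The longest gap of the combined list was near the start of X, at 22964 to 138541 (115.6 kb), with 69 bp of replicate 1 regions and 0 bp of replicate 2. The next were 15879486 to 15993319 (113.8 kb) and 8730430 to 8833583 (103.2 kb), each without a base of either replicate list. Of the 10 longest gaps, 7 held no base of either list. The lists share libraries: 184 of 198 X regions of replicate 1 and 239 of 260 of replicate 2 met a combined region. Few replicate regions could therefore lie wholly in a combined gap, and this count is only a description. Another 3 of the 10 lay close to the second gap, at 15779751 to 15856718 (77.0 kb), 16221484 to 16285723 (64.2 kb) and 16328402 to 16417054 (88.7 kb). Counted by 2 Mb, gaps over 50 kb were most numerous at 12000001 to 14000000 and at 20000001 to 22000000, with 6 each, and least so at 4000001 to 6000000 and 6000001 to 8000000, with 1 each. The shorter last stretch, 22000001 to 22422827, had 2. In the replicate lists the longest gaps lay in the same part of X: 12572899 to 13577105 (1004 kb) in replicate 1, in which the combined list had 52 regions, and 13294726 to 13910487 (615.8 kb) in replicate 2, in which it had 38.

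Close groups of regions were fewer on X. Joining neighbours at most 2 kb apart gave 317 clusters on X, with 773 of 1935 regions (39.9%), against 62.2% of arm regions. Of the clusters 234 held 2 regions, 52 held 3, 19 held 4 and 12 held 5 or more. The arms also had more regions per Mb (144.3), and the part of this in the share was not tested. In the replicate lists 8.08% and 3.85% of X regions were in clusters, against 13.8% and 16.0% on the arms, and none on X held more than 2 regions.

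The largest cluster of X had 9 regions, at 1863068 to 1885359, and covered 63.5% of its 22292 bp. It met 2 replicate 1 regions and no replicate 2 region. The next held 7 regions each. The cluster at 3888568 to 3907865 met 1 region of replicate 1 and 3 of replicate 2, and the cluster at 1604371 to 1620188 met 2 of each. Among clusters of 6, those covering the most bases were 1421860 to 1441771, which met 2 regions of each replicate list, and 2108599 to 2123672, which met 1 of replicate 1 and 2 of replicate 2. All 5 lay in the first 4 Mb of X. Of clusters of 6 with fewer covered bases, those at 831050 to 846159 and 1640285 to 1655234 also lay there. A cluster of 6 at 6708882 to 6723584 did not, and it met no region of either replicate list. Regions inside clusters and single regions met the replicate lists about equally often, at 9.44% and 9.64% for replicate 1 and 13.1% and 12.1% for replicate 2, and their median scores were 0.521 and 0.513.

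The replicate lists shared few single regions on X. Of the 1935 combined regions, 185 (9.56%) met a replicate 1 region, against 13.2% over all sequences, 242 (12.5%) met a replicate 2 region, against 16.0%, and 21 (1.09%) met both, against 2.80%. The other 1529 (79.0%) met neither, against 73.6% over all sequences and 72.5% on the arms. The combined list comes from the libraries of the replicate lists, so these shares describe how the lists relate. Between the replicates, 21 of 198 X regions of replicate 1 (10.6%, exact binomial 95% interval 6.69% to 15.8%) met one of replicate 2, against 19.1% over all sequences and 20.0% on the arms. In the other direction 21 of 260 (8.08%, 5.07% to 12.1%) did, against 15.8% over all sequences and 16.6% on the arms. The intervals treat regions as independent. X also had fewer replicate 2 regions per Mb to be met (11.6, against 24.8 on the arms), and the part of this in the share was not tested.

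Replicate regions of X also lay farther from each other. From a replicate 1 region of X the nearest replicate 2 region was 20318 bp away at the median, against 6833 bp on the arms. Within 10 kb lay 69 of 198 (34.8%) on X and 57.4% on the arms. In windows of 100 kb, 118 of 224 X windows held a replicate 1 region, and 85 of these (72.0%) held a replicate 2 region too, against 58 of the 106 windows without a replicate 1 region (54.7%). Replicate 2 covered 2.24% of the windows that held a replicate 1 region and 1.40% of the windows that did not. Across X windows the Pearson correlation of cover between the replicates was 0.265 (Spearman 0.288), and r was 0.310 without the 2 windows farthest from the median. On the arms r was 0.371 (3R) to 0.556 (2L). Windows of an arm share libraries and regional density, and no p is given.

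Longer X regions met the replicates more often, and the shares differed little between classes of score. In the longest 25% of combined X regions (1686 to 5032 bp) 20.7% met replicate 1 and 28.9% met replicate 2. In the shortest 25% (1001 to 1106 bp) 2.27% and 2.69% did. A long region offers more positions for an overlap, and no replicate region of X is shorter than 1301 bp. By score, the shares were 9.92% and 12.0% in the lowest 25% and 10.5% and 13.2% in the highest 25%. Scores ran lower in longer combined regions of X (Spearman rho -0.218), and the classes of score were not compared at equal length.

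**Figure D5:**
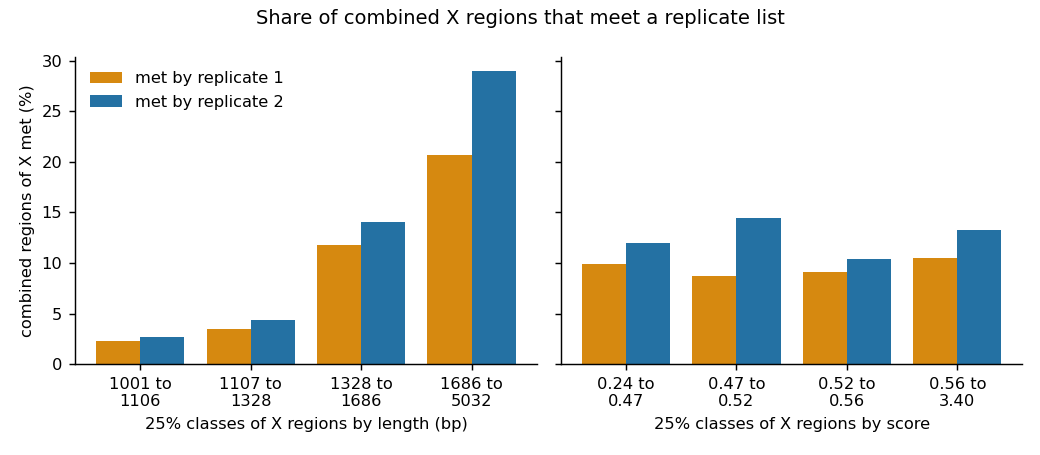
Share of combined X regions (y axis, %) that meet a replicate 1 or a replicate 2 region, in 25% classes by length (left, bp) and by the authors' score (right). The shares run from 2.27% and 2.69% in the shortest class to 20.7% and 28.9% in the longest, and lie between 8.68% and 14.5% in every class of score.

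The 21 combined regions of X that met both replicate lists were 1770 to 3815 bp long, with a median of 2270 bp, against 1238 bp for those that met neither. Their scores were 0.387 to 0.839, with a median of 0.569, against 0.517 for those that met neither. Regions that met only replicate 1 or only replicate 2 had lower medians than these, 0.514 and 0.509. The highest score belonged to X 11956575 to 11959321 (2747 bp, 0.839), where the replicate 1 region scored 1.03 and the replicate 2 region 0.829. The longest was X 1504325 to 1508139 (3815 bp, 0.588), with scores of 0.745 and 0.924 in the replicate 1 and replicate 2 lists. It lay inside the dense run that begins at 1000001, as did X 1232307 to 1235531 (3225 bp, 0.618) and X 1618141 to 1620188 (2048 bp, 0.583). The regions X 3904932 to 3907865 (2934 bp, 0.568) and X 1618141 to 1620188 belonged to clusters of 7. Further along X, both lists met X 2619051 to 2621613 (2563 bp, 0.691), the region from X 6653856 to 6657226 (3371 bp, 0.523), and then X 7644865 to 7647785 (2921 bp, 0.584) and X 18138138 to 18141780 (3643 bp, 0.581).

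The first of the 21 was also the first region of X, at 5720 to 7849 (2130 bp), 13416 bp before the next. Its score of 0.387 was the lowest of the 21. In both replicate lists its score lay at the bottom as well, at 0.427 in replicate 1 and 0.482 in replicate 2, which were the lowest scores of any X region in those lists. Between X 12000001 and 18000000 none of the 21 was found. The bounds of this span were chosen after the positions were seen. Only 1.09% of combined X regions met both lists, so few could be expected in any span, and the absence is a description.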

How the data were processed

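Coordinates are on FlyBase release 5, per the file headers. Bowtie 0.12.7 is named, without its role, in the submitters' processing notes. The caller of the regions, its threshold and the way the combined list was made of the replicates are not given in the labels or headers. For each region the authors deposited a score, on an unstated scale, and it was used within its own list only. Starts and ends are in bp as the authors deposited them.

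Regions on X and on arms 2L, 2R, 3L and 3R were counted, and their lengths, gaps, clusters (gaps of at most 2 kb) and cover in 100 kb windows from the first base were computed. Windows with under 50% of their size were left out. Regions met when they shared at least 1 bp. Named by rule were the 10 longest and 10 highest-scoring regions, those met by both replicate lists, the 10 longest gaps, the 5 densest windows and the 5 largest clusters (ties by covered bases). The members and lists were chosen with earlier results of these data known. The runs of windows, score limits, 25% classes and 500 kb stretches were chosen after values had been seen, and of the 21 shared regions some are printed by choice. The measures were tested on simulated data with planted regions. X and the arms were compared within each replicate list, where 2 pairs allow no exact two-sided p under 0.5. Genes and sequences were not analysed here, since the gene table used here is on release 6. Python 3.11.15, numpy 2.4.6, pandas 2.3.3 and scipy 1.17.1 were used. Alternatives were other score and length limits, joined regions, overlap rules, windows, cluster distances, single arms, trimmed ends and each replicate list alone.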

Additional observations from a re-analysis of the deposited data

How the results depend on the processing

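The lower density of X held in both replicate lists, against each arm and without the chromosome ends, and turned round at higher score limits. At or above the median score of each list the ratio of X to the arms was 1.14 for cover and 1.32 for number of regions, and at or above the 75th percentile 2.71 and 3.27 (both reversed). Scores are higher on X, so these limits keep more of its regions. At these 2 limits X cover was 11.8% and 10.1%, the median length 1305 and 1268 bp, the median score 0.523 and 0.533, and the score difference 0.0763 and 0.0501. The window correlation of the replicates was 0.264 at the median limit.

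With regions of at least 1500 bp alone, X cover was 6.26%, the cover ratio 0.429, the density ratio 0.471, the median length 1819 bp, the median score 0.503, the regions met by both lists 8, the median gap 15586 bp, the clusters 65, the empty windows 18 and the window correlation 0.166. Joining regions closer than 500 bp gave a density ratio of 0.647, a median length of 1367 bp and a window correlation of 0.265. Against 2L, 2R, 3L and 3R alone the cover ratio was 0.603, 0.483, 0.597 and 0.481, and the density ratio 0.663, 0.562, 0.650 and 0.542. Without the first and last 2 Mb, X cover was 12.2% and the density ratio 0.565. Windows of 50, 200 and 250 kb, and windows starting 50 kb later, gave correlations of 0.189, 0.400, 0.313 and 0.197, and 10 windows of 50 kb were empty. Neighbours at most 1 kb apart gave 211 clusters.

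With 1 replicate list in place of the combined list, without the other replicate, X cover was 1.38% to 1.84%, the cover ratio 0.415 to 0.460, the density ratio 0.421 to 0.467, the median length 1474.5 to 1503.5 bp, the median score 0.737 to 0.744, the score difference 0.148 to 0.176, the median gap 46753 to 58421 bp, the clusters 5 to 8 and the empty windows 81 to 106. The cause of these differences was not tested. Of 89 recomputed values 29 stayed within the spread or limit used for them. The window correlation had no such limit, and any change in it counted as moved. For the median gap the spread of the replicate lists, 8251 bp, exceeded the combined value of 5724 bp, so the count is a rough one. No paired analysis was possible because ChIP and Input are not given separately in the lists, and X and the arms were compared within each replicate list instead. Depth is unknown and limits every statement on a missing region.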

Other observations

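Some regions of X were listed in a replicate and not in the combined list. Of the X regions of replicate 1, 184 of 198 (92.9%) met a combined region, against 96.8% on the arms, and of replicate 2 239 of 260 (91.9%), against 97.1%. The highest-scoring of those that did not were X 4190655 to 4192466 in replicate 2 (1812 bp, score 0.976) and X 17302423 to 17303817 in replicate 1 (1395 bp, score 0.894).

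Many scores on X were exact repeats of one another. In the combined list 1058 of 1935 X regions (54.7%) had the same deposited score as another X region, with up to 27 at a single value, and on the arms 70.2% did, among more regions. Several of the 10 highest X scores were separated by simple steps. The scores of X 21821700 to 21822700 (3.40) and X 8594557 to 8595557 (2.40) differed by 1.00. The score of X 21818954 to 21819954 was the same as that of X 6328005 to 6329034, and the highest score exceeded it by 1.32. If the scores were log2 values, which the sources used here do not state, these steps would be factors of 2.00 and 2.50. The steps from the highest score to those of X 1251799 to 1252799 and X 11432680 to 11433853 would then be factors of 2.67 and 3.20. Not all steps were simple: from the highest score to the rest of the 10 the factors would be 2.14, 4.36, 4.41 and 4.89.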
